A study of Mus musculus with 6 samples.

Results

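The candidate reference miRNAs were 7 mature mouse miRNAs that are abundant in many cell types and often serve as the standard against which other miRNAs are measured: mmu-miR-191-5p, mmu-miR-425-5p, mmu-miR-103-3p, mmu-miR-107-3p, mmu-miR-26a-5p, mmu-miR-26b-5p and mmu-miR-186-5p. They were taken by name from a count table of 1907 mature miRNAs. Of the 1907, 1233 had at least 1 count in some library and 571 passed the filter on low counts and were tested. All 7 candidates were among the 571.

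Small RNA libraries came from the ESC lines RB18 and RB20, both of C57BL/6 origin, in serum, 2i and R2i, with 2 libraries per medium and 6 in all. Serum cells received 15% fetal bovine serum. The ground-state cells grew serum free with 1 µM PD0325901, a MEK inhibitor, to which 2i added 3 µM CHIR99021, a GSK3 inhibitor, and R2i added 10 µM SB431542, which blocks the TGF-β receptor. LIF was present in every medium at 1000 U/ml, and no feeder cells were used. Both lines had been derived in R2i and moved from there to serum or 2i for at least 10 passages, so the serum and 2i cells had all been R2i cells earlier. Each library was a pool of 3 cultures, so the 2 libraries of a medium differed by line, pool and sequencing together.

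Counts assigned to miRNAs totalled 1744187 in serum RB18 and 2243369 in serum RB20. The totals were 2057602 and 3365676 in 2i RB18 and RB20, and 1041858 and 3593356 in R2i RB18 and RB20. RB18 gave the smaller library in each medium, so line and depth cannot be told apart. R2i RB18 was the shallowest library, and there the 7 candidates took 5.35% of all counts, the lowest share, against 7.15% in R2i RB20, the highest. The scarcest candidate, miR-107-3p, had at least 365 counts in each library, where counting alone gives a coefficient of variation of 5.23%. Counts are reads and not molecules, so that figure covers counting error only.

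The cells carried the miRNAs of ESCs. All 9 ESC markers listed, from the miR-290-295 and miR-302 families, were tested, and their summed level lay between 267377 and 352189 normalized CPM (counts per 1000000), with miR-295-3p the most abundant. The normalization was TMM scaling, which sets the libraries to a common level through the bulk of the miRNAs. Of the fibroblast or feeder cell markers, 4 of 5 were tested, and their sum was 1431 and 2046 CPM in serum RB18 and RB20, 3329 and 3651 in 2i, with 2414 and 2422 in R2i, with miR-143-3p the most abundant. The 4 neural markers summed to between 871 and 1110 CPM, with miR-124-3p highest on average but below miR-128-3p in 4 of 6 libraries. The 3 muscle markers summed to 79.4 and 46.6 CPM in serum and to at most 7.72 CPM elsewhere. The 4 blood markers summed to 4787 CPM in 2i RB18, the highest, and 321 CPM in R2i RB20, the lowest, with miR-142a-5p the most abundant, while miR-223-3p had 0 counts in all 6 libraries. A count of 0 allows up to 0.835 CPM of the total in the deepest library and 2.88 CPM in the shallowest. In such bulk libraries, fewer cells of a type and less RNA per cell cannot be told apart, and the part of other cell types in the results was not tested.

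A mature miRNA guides Argonaute proteins to messenger RNAs that pair with its seed, the bases 2 to 8 from its 5′ end, and miRNAs with the same seed share most of their targets. Where a miRNA serves as the reference of a qRT-PCR, in place of another small RNA, any difference of it between samples passes into every other value. miR-103 and miR-107 sit in introns of the pantothenate kinase genes, which act in coenzyme A synthesis, and the miR-26 genes in introns of the CTD small phosphatase genes. These families are known for the repression of Dicer by miR-103/107 and of Ezh2 by miR-26.

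The mature sequences are shown because the 7 candidates held 2 near-identical pairs whose levels are compared further on. RefSeq (GRCm38.p6) matched 7 of 7 names, with 9 genes and 5 different seeds, and capitals mark the seed.
miR-191-5p: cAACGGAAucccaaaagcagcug
miR-425-5p: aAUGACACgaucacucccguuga
miR-103-3p: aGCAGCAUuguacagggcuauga
miR-107-3p: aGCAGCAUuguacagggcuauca
miR-26a-5p: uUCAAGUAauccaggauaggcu
miR-26b-5p: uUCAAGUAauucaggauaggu
miR-186-5p: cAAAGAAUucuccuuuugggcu

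Counted from the 5′ end, miR-103-3p differed from miR-107-3p by G22C, and 22 of 23 bases were identical. Reads that stop before that base cannot be assigned to either, so the split of counts between the pair is uncertain. miR-26a-5p differed from miR-26b-5p by C11U and C21U, with 19 of 21 compared bases identical. miR-425-5p shared its seed with miR-489-3p, which had 14 counts over the 6 libraries together. miR-103-3p is made from Mir103-2, in an intron of Pank2 at chr2:131288052-131288137, and Mir103-1, in an intron of Pank3 at chr11:35782396-35782481, both on the plus strand. miR-107-3p comes from Mir107, in an intron of Pank1 at chr19:34820687-34820773 on the minus strand. miR-26a-5p is made from Mir26a-1, in an intron of Ctdspl at chr9:119031796-119031885, and Mir26a-2, inside Ctdsp2 at chr10:126995530-126995613, where its last base meets an exon of a shorter transcript. Mir26b lies in an intron of Ctdsp1 at chr1:74394310-74394394, and Mir186 in an intron of Zranb2, a splicing factor gene, at chr3:157544279-157544349. Reads of miR-103-3p and of miR-26a-5p can therefore stem from 2 genes each, and how such reads were counted is not given in the sources used here. Mir191 (chr9:108568319-108568392) and Mir425 (chr9:108568777-108568861) are 384 bases apart on the plus strand, inside an exon of the long non-coding RNA 4833445I07Rik, and Gm24083 is annotated on the opposite strand of Mir191. The annotation was GENCODE M21.

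By mean level over the 6 libraries, miR-26a-5p ranked 9 and miR-191-5p 13 among the 1907 miRNAs, followed by miR-186-5p at 23, miR-26b-5p at 34, miR-425-5p at 49, miR-103-3p at 54 and miR-107-3p at 136. miR-26a-5p and miR-191-5p were neighbours whose levels overlapped across libraries, as were miR-186-5p and miR-26b-5p, and miR-425-5p and miR-103-3p. Levels of different miRNAs also carry the biases of adapter ligation, so this order is that of the counts.

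miR-191-5p stood at 15724 CPM in serum RB18 and 19984 in serum RB20, at 19553 and 19075 in 2i, and at 14531 and 25028 in R2i. The R2i libraries were the lowest and the highest of the 6, and the serum and ground-state values overlapped. Its genomic neighbour miR-425-5p was measured at 1725 and 1641 CPM in serum RB18 and RB20, 2849 and 2534 in 2i, with 2108 and 3029 in R2i. Here both serum libraries lay below all 4 ground-state libraries.

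miR-103-3p had 980 and 1823 CPM in serum RB18 and RB20, 2369 and 2454 in 2i, with 2230 and 2287 in R2i. The ground-state libraries lay close together above both serum libraries, which were far apart. miR-107-3p had 200 and 258 CPM in serum, 454 and 467 in 2i, with 341 and 339 in R2i. Its 3 media formed 3 levels that did not overlap, lowest in serum and highest in 2i.

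miR-26a-5p, the most abundant candidate, stood at 24262 and 22843 CPM in serum RB18 and RB20, 25436 and 29810 in 2i, with 18898 and 30034 in R2i. As with miR-191-5p, the R2i libraries enclosed all others. miR-26b-5p had 5176 and 7103 CPM in serum, 3513 and 3956 in 2i, with 3371 and 3704 in R2i, and it was the candidate whose serum libraries lay above all ground-state libraries. miR-186-5p had 6217 and 7666 CPM in serum, 10205 and 11841 in 2i, with 6318 and 9013 in R2i, so that 2i lay above the overlapping serum and R2i values.

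**Figure D1:**
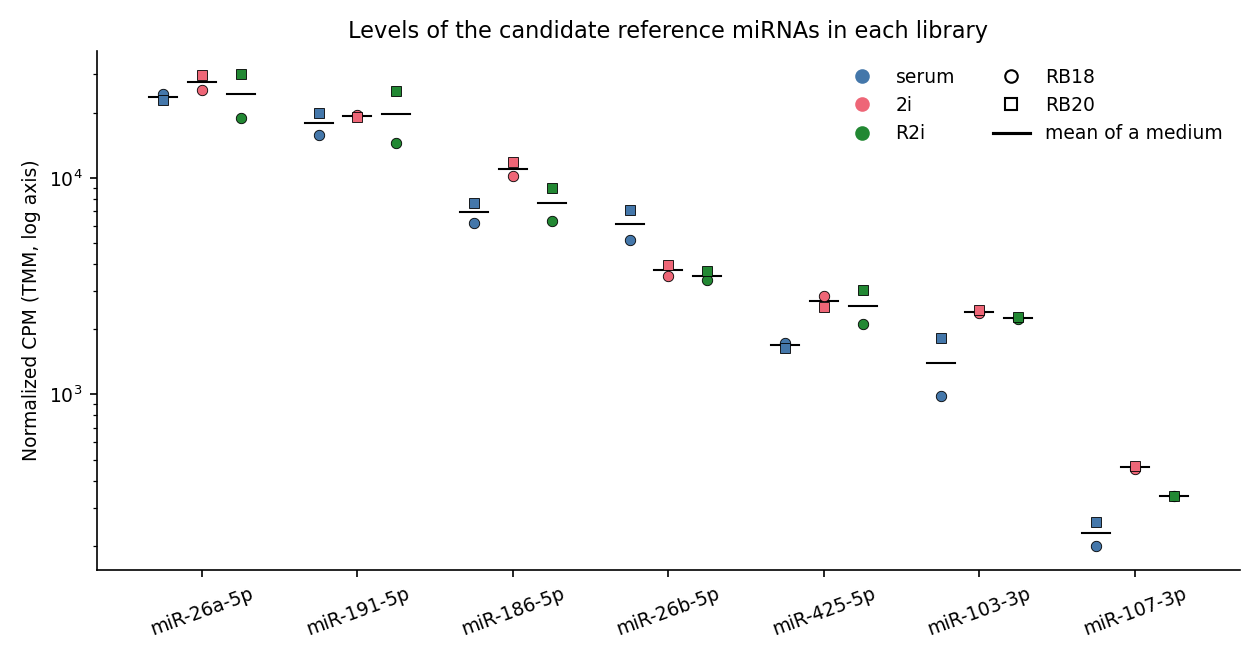
Normalized CPM (log axis) of the 7 candidate reference miRNAs in each of the 6 libraries, with colour for the medium, circles for RB18, squares for RB20 and a line at the mean of a medium. The serum libraries of miR-26b-5p, at 5176 and 7103 CPM, lie above its ground-state libraries, and those of miR-425-5p, miR-103-3p and miR-107-3p lie below theirs. How many other tested miRNAs are separated in this way was not counted.

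Stability was measured as the SD over the 6 libraries of log2(normalized CPM + 0.5), where a lower value means a steadier level. The median SD of the candidates was 0.376, beside 0.693 for the 571 tested miRNAs and 0.495 for the 235 with a mean of at least 100 CPM. All 7 candidates had a lower SD than the median tested miRNA, and 6 of 7 a lower SD than the median of the abundant ones, the exception being miR-103-3p. miR-26a-5p was the steadiest candidate (SD 0.252, rank 60 of 571), followed by miR-191-5p (0.278, rank 75). Their order depended on the scaling and the libraries, since miR-191-5p had the lower SD of the pair with library totals (0.213 beside 0.217) and without R2i RB20 (0.208 beside 0.239). miR-425-5p (0.372) and miR-186-5p (0.376) were alike, and miR-26b-5p (0.416), miR-107-3p (0.472) and miR-103-3p (0.504, rank 215) varied most. The place of miR-26b-5p depended on the scaling. Its SD was below that of miR-425-5p with library totals (0.360 beside 0.390) and median-of-ratios scaling (0.372 beside 0.392). The highest level was 1.59 times the lowest for miR-26a-5p and 2.50 times for miR-103-3p. The SD of miR-103-3p was 0.168 without serum RB18, the lowest of the candidates there, and that of miR-26b-5p 0.245 without serum RB20.

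**Figure D2:**
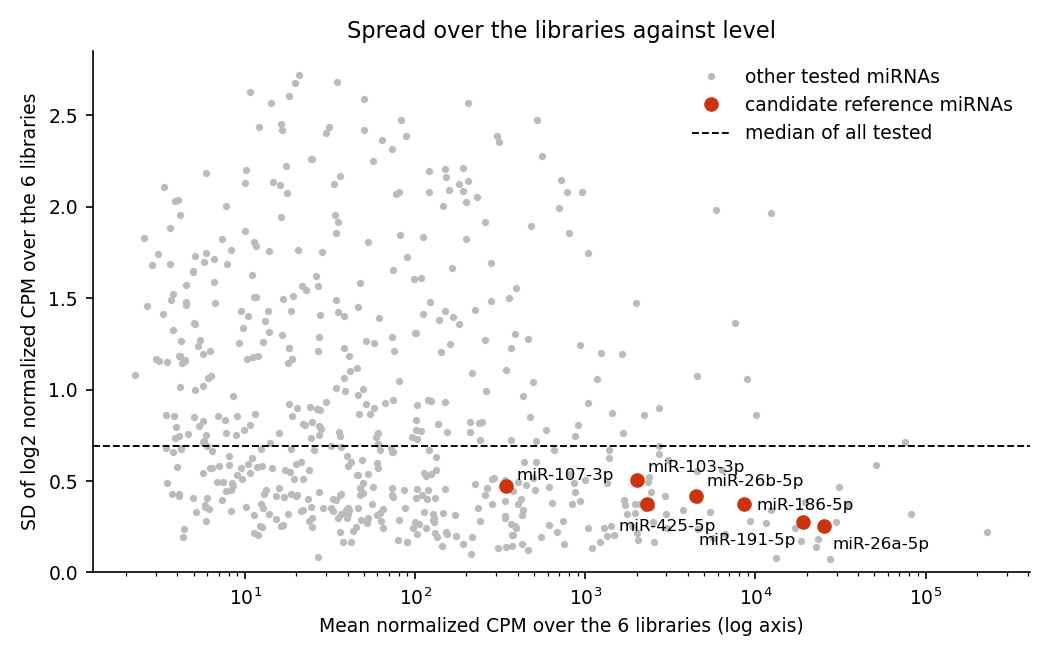
SD over the 6 libraries of log2 normalized CPM against mean normalized CPM (log axis) for the 571 tested miRNAs, with the candidates in red and a dashed line at the median SD of 0.693. All 7 candidates lie below the line, from 0.252 for miR-26a-5p to 0.504 for miR-103-3p, among many other miRNAs with an equal or lower SD.

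The source of the spread differed among the candidates. For miR-191-5p the SD within a medium was 0.350 on the log2 scale and the SD between the means of the media was 0.07, and for miR-26a-5p these were 0.291 and 0.126. For miR-107-3p the order was the opposite, with 0.151 within and 0.512 between media. The candidates' medians were 0.258 within and 0.367 between media, beside 0.337 and 0.648 for all tested miRNAs and 0.269 and 0.483 for those of at least 100 CPM. Within media the candidates were thus close to other abundant miRNAs. The medium with the largest difference between lines varied. In R2i, RB20 exceeded RB18 by 0.78 for miR-191-5p, 0.67 for miR-26a-5p, 0.52 for miR-425-5p and 0.51 for miR-186-5p on the log2 scale. For the 3 others the largest difference was in serum, where RB20 exceeded RB18 by 0.89 for miR-103-3p, 0.46 for miR-26b-5p and 0.37 for miR-107-3p, beside 0.04, 0.14 and -0.01 in R2i. R2i RB18 was also the shallowest library, and the part of depth in the R2i differences was not tested.

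The 10 most stable of the 235 abundant miRNAs were miR-291a-5p (SD 0.0744), miR-291a-3p, miR-17-3p, miR-320-3p, miR-296-5p, miR-294-5p, miR-290a-3p, miR-293-3p, miR-128-3p and miR-361-3p (SD 0.144). Of these, 5 belong to the ESC-specific miR-290-295 cluster. miR-291a-5p stayed between 25319 and 28637 CPM, a level close to that of miR-26a-5p. Its serum libraries, at 28516 and 28637 CPM, still lay above all ground-state libraries, the highest of which had 28281 CPM. Separation of serum from the ground state thus occurred at the lowest SD too. Choosing the lowest of many SDs favours low values, so these are a description of the 6 libraries.

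The first comparison asked whether the candidates differed between 2i and serum. miR-107-3p was higher in 2i, with a log2 fold change of 1.01 (SE 0.24, edgeR adjusted p = 0.00952), and the change was 1.18 in RB18 and 0.86 in RB20. miR-26b-5p was lower in 2i by a log2 fold change of -0.72 (SE 0.24, adjusted p = 0.0402), with -0.56 in RB18 and -0.84 in RB20. Thus 2 of 7 candidates were called at an adjusted p under 0.05, where 292 of the 571 tested miRNAs, or 51.1%, were called. At the stricter rule of an adjusted p under 0.01 and over 2-fold, miR-107-3p alone was called, where 34.2% of all tested were. miR-425-5p, miR-103-3p and miR-186-5p had log2 fold changes of 0.68, 0.78 and 0.67 with adjusted p-values of 0.0556, 0.0677 and 0.0642. Those 3 passed under median-of-ratios scaling, library totals or TMM without the 5 most abundant miRNAs, each of which gave 5 of 7 candidates called with unchanged directions, beside 296, 294 and 297 of the 571 tested. With the cell line as a block, miR-186-5p passed as well (adjusted p = 0.0323), which made 3 of 7 beside 281 of the 571 tested. The call of miR-107-3p was lost without 2i RB20 (adjusted p = 0.0537), whereas that of miR-26b-5p held in 1 of 6 fits that left out a library, the one without serum RB18, and its adjusted p was 0.192 without 2i RB18. Its log2 fold change ranged from -0.85 without serum RB18 to -0.47 without serum RB20. The call was also lost without the filter on low counts (adjusted p = 0.0921) and with only serum and 2i in the fit (0.0582). Without the filter 2 of 7 candidates were still called, beside 323 of the 1233 miRNAs tested there, since miR-103-3p passed there.

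The log2 fold changes between 2i and serum of miR-191-5p and miR-26a-5p were 0.11 and 0.23, with adjusted p-values of 0.777 and 0.510. With a library left out, they ranged from 0.03 to 0.30 for miR-191-5p and from 0.11 to 0.36 for miR-26a-5p. The 95% intervals of miR-191-5p and miR-26a-5p ran from -0.58 to 0.80 and from -0.40 to 0.86. Differences of 2-fold were thus outside both intervals, but some smaller ones were inside. For the other 5 candidates the interval reached beyond 2-fold.

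The second comparison set R2i against serum. miR-26b-5p was lower in R2i (log2 fold change -0.80, SE 0.24, adjusted p = 0.0317), with -0.62 in RB18 and -0.94 in RB20. It was the only candidate of 7 called by edgeR with TMM scaling, against 41.7% of the 571 tested, and 0 were called by the stricter rule, against 30.6%. At an unadjusted p under 0.05 there were 3 candidates and 283 of the 571 tested, and DESeq2 called 4 candidates and 235 of all tested at its adjusted p under 0.05. miR-103-3p, miR-425-5p and miR-107-3p had log2 fold changes of 0.69, 0.61 and 0.57 with adjusted p-values of 0.112, 0.0904 and 0.0921. That of miR-425-5p was 0.83 without R2i RB18 and 0.33 without R2i RB20, not called in either. Library totals in place of TMM moved the median of all tested miRNAs by 0.11 on the log2 scale in this comparison and called those 3 too, which made 4 of 7 beside 241 of all tested, and median-of-ratios scaling called 3 beside 243. The call of miR-26b-5p held in 1 of 6 fits that left out a library, the one without serum RB18, and its adjusted p was 0.112 without R2i RB18 and 0.0836 with only serum and R2i in the fit. The log2 fold changes of miR-191-5p, miR-186-5p and miR-26a-5p were 0.15, 0.14 and 0.05, and all 3 became negative without R2i RB20, at -0.30, -0.14 and -0.32.

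The third comparison, R2i against 2i, asked whether the kind of ground-state medium mattered. None of the 7 candidates was called by edgeR, DESeq2 or limma, and 0 had an unadjusted p under 0.05. With edgeR the background was low as well, since 3 of the 571 tested miRNAs, or 0.525%, were called, and 104 had an unadjusted p under 0.05. limma called 3, DESeq2 40, and edgeR without the filter on low counts 41 of 1233, among them no candidate. The 3 were miR-211-5p, miR-211-3p and miR-152-5p, named after their values were seen, and the first pair made up the 0.35% called by the stricter rule. The largest candidate differences were those of miR-186-5p, with a log2 fold change of -0.52 (95% interval -1.13 to 0.08, adjusted p = 0.329), and miR-107-3p, with -0.44 (-0.99 to 0.11, adjusted p = 0.376). With a library left out, miR-186-5p ranged from -0.80 to -0.33 and miR-107-3p from -0.48 to -0.42, so their order depended on the library. The interval lay within 2-fold for 6 of 7 candidates, all but miR-186-5p.

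Ground state against serum, with 2i and R2i averaged, used all 6 libraries at once. miR-107-3p exceeded its serum level (log2 fold change 0.79, SE 0.21, adjusted p = 0.0158) and miR-425-5p did as well (0.64, SE 0.22, adjusted p = 0.0429), and miR-26b-5p was lower (-0.76, SE 0.20, adjusted p = 0.0162). Thus 3 of 7 candidates were called, beside 51.3% of the 571 tested, and 0 by the stricter rule, beside 37.0%. At an unadjusted p under 0.05 there were 4 candidates and 329 of the 571 tested, the other candidate being miR-103-3p (0.74, adjusted p = 0.0561). It was called with the 3 other scalings, without the filter on low counts, and by DESeq2 and limma. The value of miR-103-3p depended on the serum libraries, since it was 1.25 without serum RB20 (adjusted p = 0.00305), 0.44 without serum RB18 (adjusted p = 0.0851), and under the threshold in 1 of 6 fits that left out a library. In the same way it ranged from 0.48 to 1.299 in 2i and from 0.40 to 1.20 in R2i against serum. With the cell line as a block, miR-103-3p passed (adjusted p = 0.0489) and miR-425-5p did not (adjusted p = 0.0586). The call of miR-107-3p held in 6 of 6 fits that left out a library. That of miR-26b-5p was lost without 2i RB18 (adjusted p = 0.0631), 2i RB20 (0.0516) or serum RB20 (0.0502), and that of miR-425-5p in 4 of 6, with an adjusted p of up to 0.115 without R2i RB20. Directions were the same in all of these fits.

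miR-191-5p and miR-26a-5p showed the smallest ground-state differences, with log2 fold changes of 0.13 (95% interval -0.47 to 0.73, adjusted p = 0.711) and 0.14 (-0.41 to 0.69, adjusted p = 0.651). Both turned slightly negative without R2i RB20, at -0.09 and -0.04. miR-186-5p had a log2 fold change of 0.41 (-0.13 to 0.94, adjusted p = 0.171), and from 0.27 to 0.56 with a library left out. These 3 were the candidates whose interval lay within 2-fold. The median log2 fold change of the 7 was 0.41 beside -0.02 for all tested, and the median absolute value was 0.64 beside 0.91. An exact two-sided permutation test on the absolute difference cannot go below 0.333 with 2 libraries against 2, or below 0.0667 with 4 against 2, so the adjusted p-values rest on edgeR's sharing of the spread among miRNAs.

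**Figure D3:**
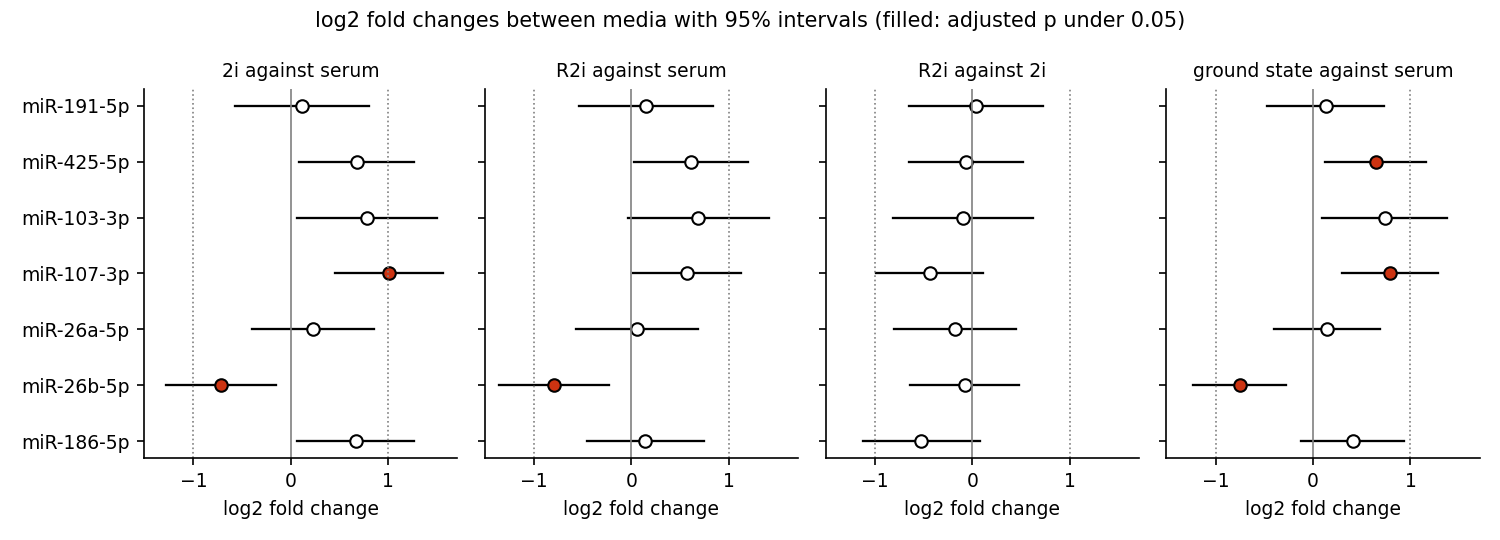
log2 fold changes of the 7 candidates in the 4 comparisons (points) with 95% intervals (bars), from edgeR over all 6 libraries, filled where the adjusted p was under 0.05, with dotted lines at 2-fold. miR-107-3p and miR-26b-5p are filled on opposite sides of 0 in 2i and in the ground state against serum, and no point is filled for R2i against 2i.

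The opposite arms of the same hairpins were also read, as products of the candidates' genes. Of 9 opposite arms, 5 passed the filter, and miR-103-1-5p had 0 counts in all libraries. miR-26b-3p stood at 29.0 and 19.8 CPM in serum RB18 and RB20, 21.9 and 23.8 in 2i, with 18.01 and 29.2 in R2i. Serum and ground state overlapped for this arm, whose ground-state log2 fold change was -0.04 (95% interval -0.72 to 0.63, adjusted p = 0.917), beside -0.76 for miR-26b-5p. miR-425-3p lay between 66.2 and 89.8 CPM, with a log2 fold change of 0.11 (-0.35 to 0.58, adjusted p = 0.675), beside 0.64 for miR-425-5p. The intervals of each arm and its candidate overlapped, and the difference between arms was not tested. miR-191-3p and miR-26a-2-3p had log2 fold changes of 0.25 each (adjusted p = 0.485 and 0.405), and miR-186-3p, with at most 18 counts in a library, had -0.54 (adjusted p = 0.280). None of the 5 was called by edgeR in ground state against serum, where 51.3% of all tested were.

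Ratios between candidates do not depend on the scaling of the libraries. Over the 21 pairs of candidates, the SD of the log2 ratio ranged from 0.185 to 0.815 with a median of 0.380. The steadiest ratio was that of miR-191-5p to miR-26a-5p, which have different seeds and chromosomal positions and stayed between 0.640 and 0.875. miR-103-3p to miR-107-3p came next (SD 0.227), with ratios of 4.91 and 7.08 in serum RB18 and RB20, 5.22 and 5.25 in 2i, with 6.54 and 6.74 in R2i. Its 2i ratios lay below its R2i ratios. The split of reads between this pair is uncertain, as stated above, and its effect on the ratio was not tested. The ratio of the other sequence pair varied more (SD 0.510): miR-26a-5p exceeded miR-26b-5p by 4.69 and 3.22 times in serum, 7.24 and 7.54 times in 2i, and 5.61 and 8.11 times in R2i, and the serum libraries lay below all others. The ratio of the neighbours miR-191-5p and miR-425-5p was 9.11 and 12.2 in serum, 6.86 and 7.53 in 2i, with 6.89 and 8.26 in R2i, again without overlap between serum and ground state. This was not particular to the neighbours. The ratio of miR-191-5p to miR-107-3p, from another chromosome, was 78.7 and 77.6 in serum and at most 73.8 in the ground state. miR-186-5p had the lowest mean SD against the other candidates, 0.355, and miR-26b-5p the highest, 0.669.

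**Figure D4:**
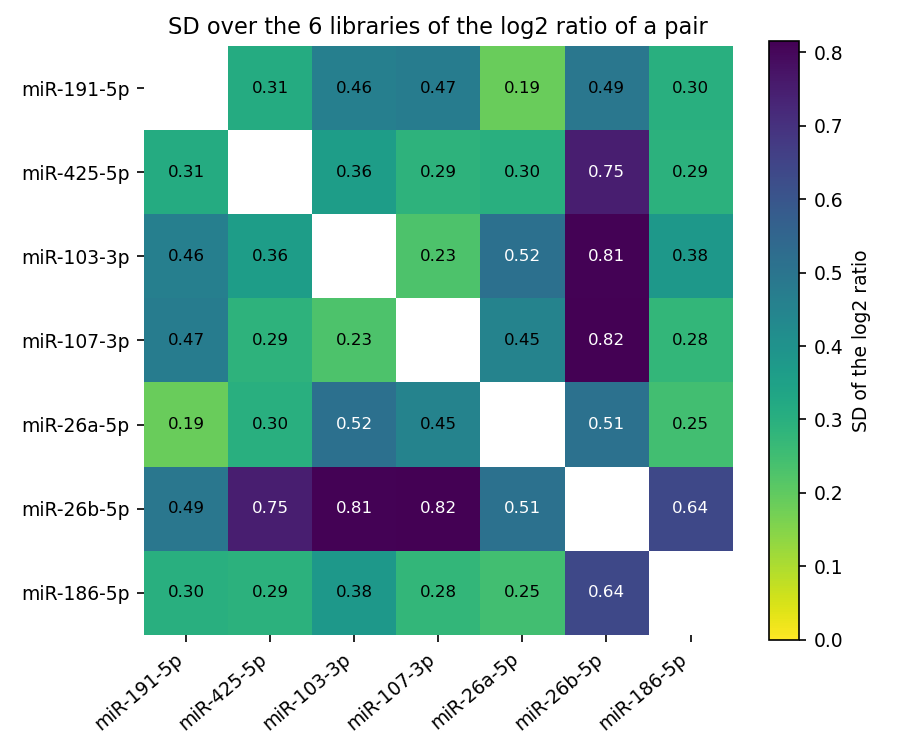
SD over the 6 libraries of the log2 ratio for each of the 21 pairs of candidates, where a lower value is a steadier ratio. miR-191-5p with miR-26a-5p (0.185) and miR-103-3p with miR-107-3p (0.227) are the lowest, and the row of miR-26b-5p holds the highest values, up to 0.815 with miR-107-3p.

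To test such ratios, the edgeR fit was repeated with a candidate as the only scaling factor, so that a log2 fold change is that of a miRNA relative to the candidate, with p adjusted over the 570 remaining miRNAs. This was chosen after the data were seen. Such a fit treats the counts of the scaling candidate as exact. In ground state against serum miR-26b-5p was lower relative to each of the 6 others, from -0.84 relative to miR-191-5p (adjusted p = 0.0431) and -0.88 relative to miR-26a-5p (adjusted p = 0.0323) to -1.56 relative to miR-103-3p (adjusted p = 0.000149). In 2i and in R2i against serum it passed relative to 4 of 6, the exceptions being miR-191-5p and miR-26a-5p in both. Lower calls were common in these fits. With those 4 factors they ranged from 222 to 308 of 570 in 2i and from 129 to 234 in R2i against serum. In ground state against serum they numbered 144 of 570 with miR-26a-5p, 146 with miR-191-5p and 202 with miR-186-5p. With miR-425-5p, miR-103-3p and miR-107-3p they numbered 244, 271 and 302 there. miR-103-3p relative to miR-107-3p had a log2 fold change of -0.02 (95% interval -0.53 to 0.48, adjusted p = 0.932), and miR-191-5p relative to miR-26a-5p -0.02 (-0.64 to 0.60, adjusted p = 0.973). For miR-425-5p relative to miR-191-5p it was 0.51 (-0.27 to 1.28, adjusted p = 0.308), so that the ratios of these neighbours did not overlap between serum and ground state but did not pass.

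The p-value of a ratio depended on which of the pair was the scaling factor. With miR-26b-5p as the factor, its ratios to miR-191-5p and miR-26a-5p passed in R2i against serum (adjusted p = 0.00939 and 0.0214), in 2i against serum (0.0149 and 0.00989) and in the ground state (0.00502 and 0.00659). Of the 570 miRNAs in these fits, 240, 245 and 265 were called higher in those comparisons. miR-103-3p relative to miR-191-5p did not pass in the ground state (adjusted p = 0.159), but miR-191-5p relative to miR-103-3p did (adjusted p = 0.0450). So did miR-26a-5p relative to miR-103-3p (0.0440, reversed 0.198). Relative to miR-107-3p, miR-191-5p and miR-26a-5p passed as well (0.0281 and 0.0274, reversed 0.178 and 0.156). These ratios to miR-107-3p also passed in 2i against serum (0.0157 and 0.0269, reversed 0.128 and 0.153). The total degrees of freedom were at most 7.66 with TMM, 12.7 with the geometric mean, 20.6 with miR-186-5p and 1710 with miR-191-5p, and the common biological coefficient of variation was 24.6% with TMM and 32.5% with miR-191-5p. Whether the p-values of these scaled fits are too small or too large was not tested.

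The closest companion of each candidate was sought among the 235 miRNAs of at least 100 CPM, by the SD of the log2 ratio over the 6 libraries. These were miR-148b-3p for miR-191-5p (0.146), miR-30c-5p for miR-425-5p (0.142), miR-340-5p for miR-103-3p (0.128), miR-143-3p for miR-107-3p (0.0900), miR-126a-3p for miR-26a-5p (0.101), miR-151-3p for miR-26b-5p (0.160) and miR-27b-3p for miR-186-5p (0.139). Next came miR-126a-3p, miR-872-3p, miR-582-3p, let-7f-5p, let-7c-5p, miR-30a-5p and miR-93-5p, in the same order. Here too the lowest of many SDs was chosen, which favours low values, so these companions are a description of the 6 libraries. miR-143-3p is the most abundant of the fibroblast markers, with 1317 and 1877 CPM in serum RB18 and RB20, 3113 and 3378 in 2i, with 2120 and 2208 in R2i. Of the 4 fibroblast markers tested, 2 were called by edgeR in ground state against serum, where 51.3% of all tested were, and both were higher, miR-143-3p (log2 fold change 0.73, adjusted p = 0.0259) and miR-199a-3p (1.19, adjusted p = 0.0104). miR-199a-3p had 31.7 and 45.6 CPM in serum, below all ground-state libraries, and was highest in R2i RB18 (106 CPM) rather than in 2i. miR-145a-5p and miR-199a-5p overlapped between serum and ground state, and miR-214-3p had 0 counts in 2i. The part of fibroblast-like cells in the level of miR-107-3p was not tested.

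Another 12 miRNAs that have been used or proposed as references gave a comparison. All were tested, and 3, 2, 0 and 2 of 12 were called in 2i against serum, R2i against serum, R2i against 2i and ground state against serum, beside 51.1%, 41.7%, 0.525% and 51.3% of the 571 tested. Their SDs ranged from 0.167 for miR-423-3p (rank 17 of 571) to 0.965 for miR-23a-3p, which was lower in the ground state (log2 fold change -1.79, SE 0.26, adjusted p = 0.000702). miR-30c-5p (0.240), miR-93-5p (0.241), miR-484 (0.241) and let-7a-5p (0.256) had SDs close to the 0.252 of miR-26a-5p.

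Scaling to a candidate takes about its own log2 fold change away from that of every miRNA, so the calls of such a fit largely restate the fold changes above and are no separate result. They are given to show the size of the effect in ground state against serum. The median of all tested miRNAs shifted by -0.11 with miR-191-5p, -0.12 with miR-26a-5p, -0.31 with the geometric mean, -0.40 with miR-186-5p, -0.63 with miR-425-5p, -0.80 with miR-107-3p, -0.84 with miR-103-3p and 0.74 with miR-26b-5p on the log2 scale. With TMM, 140 miRNAs were higher and 153 lower (47.8% higher). The split was 118 and 146 scaled to miR-191-5p, 109 and 144 to miR-26a-5p, 109 and 196 to the geometric mean, 89 and 302 to miR-107-3p, and 265 and 97 to miR-26b-5p.

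**Figure D5:**
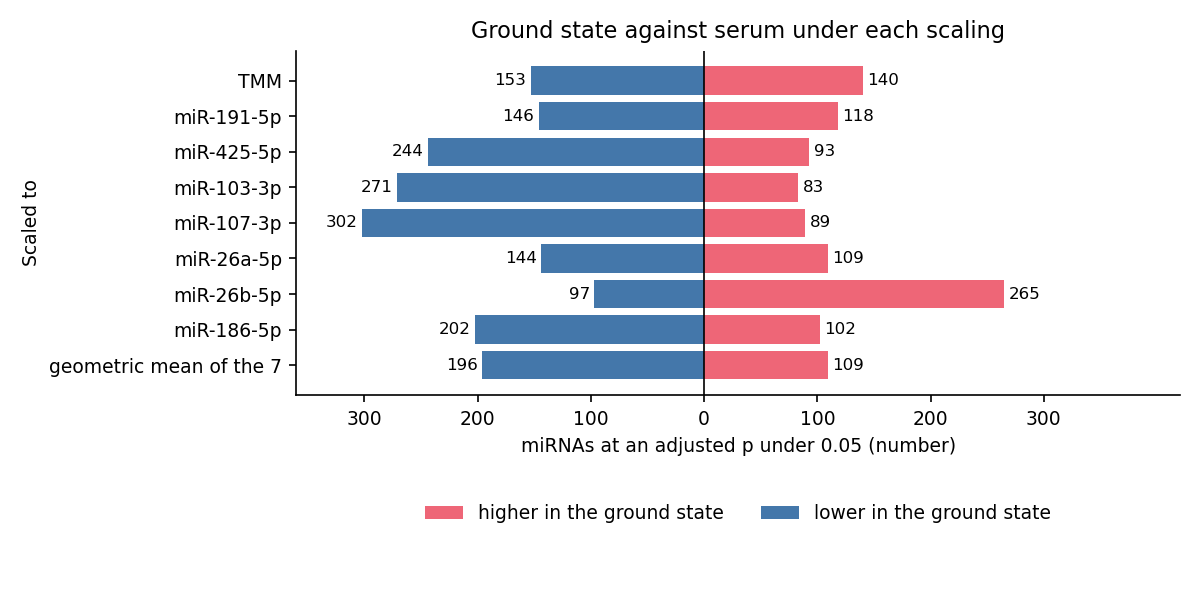
Number of miRNAs higher (right) and lower (left) in the ground state than in serum at an edgeR adjusted p under 0.05, with TMM, with each candidate as the only scaling factor, and with the geometric mean of the 7. The bars lean by the fold change of the candidate itself, to lower calls with miR-107-3p (89 and 302) and to higher calls with miR-26b-5p (265 and 97).

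The miRNAs that the study measured by qRT-PCR give examples. With TMM the ground-state log2 fold change was 3.74 for miR-541-5p, 3.94 for miR-409-3p, 3.81 for miR-410-3p and -2.62 for miR-21a-5p, all called by edgeR. let-7a-5p, a miRNA of differentiating cells, had 0.39 (adjusted p = 0.173) and miR-16-5p 0.54 (adjusted p = 0.0971), neither called. The last pair lay within the fold changes of the candidates, so that by arithmetic its sign hung on the candidate: let-7a-5p had -0.46 scaled to miR-103-3p and 1.12 scaled to miR-26b-5p. For this pair the paper reported minor but statistically significant differences between qRT-PCR and sequencing. As the control of a miRNA qRT-PCR the paper names a small nucleolar RNA and no candidate.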

How the data were processed

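Per the labels, small RNA libraries of 6 samples (2 ESC lines in 3 media) were sequenced, and the submitters' processing notes name FastQC 0.11.5, cutadapt 1.3, Bowtie 1.1.2, featureCounts 1.5 and mm10. The authors deposited raw read counts for 1907 mature miRNAs, which were used here for all tests except limma. The authors also deposited log2 values, which equal log2(count / size factor + 1) within 0.006 and were used for limma and an alternative SD. How reads matching several miRNA genes were counted is not given in the sources used here.

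Counts were scaled by TMM and tested with edgeR 4.0.16 in R 4.3.3 (filterByExpr, minimum count 10, minimum total 15, quasi-likelihood test, 1 coefficient per medium, 6 libraries), after tests on simulated data. p-values were Benjamini-Hochberg adjusted over 571 miRNAs, and the common biological coefficient of variation was 24.6%. The 95% intervals used the standard error, |log2 fold change| / sqrt(F). A call needed an adjusted p under 0.05 with no fold minimum, since small differences matter for a reference. Alternatives were other scalings, no filter, DESeq2 1.42.0, limma 3.58.1, a cell line block, fewer libraries and, added after the data were seen, scaling to each candidate.

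The lines RB18 and RB20 pair the libraries by name; the RB20 minus RB18 differences of 571 miRNAs correlated at r = 0.212 (serum with 2i), -0.130 (serum with R2i) and 0.222 (2i with R2i). The members and lists were chosen with earlier results of these data known. Named were the 7 candidates, their opposite arms, miRNAs sharing a seed, 12 other references, the 2 nearest miRNAs of each candidate, the 10 most stable of at least 100 CPM, the qRT-PCR targets and cell type markers.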

Additional observations from a re-analysis of the deposited data

How the results depend on the processing

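The 7 candidates kept an SD below the median of all tested miRNAs under each of the 13 alternatives run for it, with a median SD between 0.332 and 0.416. Candidate calls were less settled. In 2i against serum, 5 of 7 were called under median-of-ratios scaling, library totals, TMM without the 5 most abundant miRNAs, DESeq2 and limma, where 296, 294, 297, 289 and 289 of the 571 tested were. There was 1 of 7 with only the media compared (275 of all tested), 1 by the rule of an adjusted p under 0.01 and over 2-fold (195), and 0 to 3 when a library was left out (202 to 278). In R2i against serum the counts were 3 under median-of-ratios scaling (243 of all tested), 4 under library totals (241), 4 with DESeq2 (235), 2 with limma (238), 0 with only the media compared (212), 0 by the stricter rule (175), and 0 to 2 with a library left out (184 to 226). In ground state against serum the stricter rule gave 0 (211 of all tested) and leaving out a library 1 to 3 (252 to 277). The cause of these differences was not tested.

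Of all miRNAs, the 3 called in R2i against 2i became 7 under TMM without the 5 most abundant, 41 without the filter (of 1233 tested there) and 40 with DESeq2. Added after the data were seen, scaling to miR-191-5p gave 15, to miR-425-5p 13, to miR-103-3p 5, to miR-107-3p 75, to miR-26a-5p 8, to miR-26b-5p 17, to miR-186-5p 75 and to the geometric mean 16. Whether the p-values of these scaled fits are too small or too large was not tested. Over all alternatives the count ranged from 195 to 390 in 2i, 175 to 325 in R2i and 211 to 391 in the ground state against serum.

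Among log2 fold changes, reversals concerned small, uncalled values. With a library left out, R2i against serum ranged from -0.30 to 0.47 for miR-191-5p, -0.32 to 0.33 for miR-26a-5p and -0.14 to 0.36 for miR-186-5p. R2i against 2i ranged from -0.41 to 0.33 for miR-191-5p, -0.35 to 0.13 for miR-425-5p, -0.55 to 0.0816 for miR-26a-5p and -0.15 to 0.0102 for miR-26b-5p. Ground state against serum ranged from -0.0918 to 0.31 for miR-191-5p and -0.0438 to 0.29 for miR-26a-5p. R2i against 2i was -0.0167 for miR-191-5p under the line block and 0.0024 for miR-26b-5p with library totals. Blocking on the cell line gave 3, 1, 0 and 3 candidates called in 2i against serum, R2i against serum, R2i against 2i and ground state against serum, beside 281, 235, 4 and 288 of all tested. Apart from miR-186-5p, miR-103-3p and miR-425-5p as given above no other candidate call changed. Over the alternatives without scaling to a candidate, 311 candidate values stayed on their side of the threshold, 40 gained a call, 22 lost it and 12 reversed. A fit that leaves 1 library in a medium assumes that it varies like the others.

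With 2 libraries per medium the 95% interval lay within 2-fold for 2, 3, 6 and 3 of 7 candidates in 2i against serum, R2i against serum, R2i against 2i and ground state against serum. The scarcest candidate had at least 365 counts in each library.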
